A study of Rattus norvegicus with 6 samples.

Results

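The nodes of Ranvier, the gaps between myelin segments, and the paranodes and juxtaparanodes beside them were described here through 8 genes of the axon and its glia: Cntn1, Cntn2, Cntnap1, Cntnap2, Nfasc, Nrcam, Ank3 and Sptbn4. They were taken by name from a table of gene counts, and all 8 were found among its 33455 genes. The tissue was the core of a contusion lesion of the spinal cord at T9 in wild type Norway rats, a piece of about 5 mm3 per library. Of the 6 libraries, 3 came from rats labelled Gel+US, with a gel and ultrasound, and 3 from rats labelled Piezo Gel+US. The study's title speaks of a piezoelectric implant, a material that turns mechanical strain into electric charge. Rats of both groups carried the injury and received ultrasound over the implant for 10 min a day during 4 weeks, at an intensity of 1.0 W/cm2 and a rate given as 100 Hz, so no library stands for uninjured or unstimulated cord. The labels call the replicates biological, and give neither the age and strain of the rats nor whether each library came from 1 animal.

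Saltatory conduction depends on the order of proteins along the myelinated axon. At the node, the neurofascin and NrCAM adhesion molecules bind ankyrin-G, the product of Ank3, which is tied to the actin cytoskeleton by beta-IV spectrin, the product of Sptbn4, and holds voltage-gated sodium channels in place. At the paranode, contactin-1 and Caspr, the product of Cntnap1, form the axonal part of a septate-like junction whose glial partner is a short form of neurofascin. At the juxtaparanode, contactin-2 (also TAG-1), made by neurons and by myelinating glia, and Caspr2, the product of Cntnap2, gather Kv1 potassium channels. Loss of myelin after cord injury is known to disperse these domains. Nfasc encodes both a neuronal and a glial form, and counts per gene do not separate them.

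Stretches of 250 bases upstream of annotated starts are shown for Cntn1, the member of highest level per length, and for Cntn2 and Nfasc, the members with the largest and the smallest SD of log2 level over the libraries, which are neighbours in the genome. They are RefSeq sequences of the GRCr8 assembly of the Norway rat, matched by symbol, and 5 of the 8 members had an entry. Capitals mark the core letters recognised by SOX factors, ACAAT or its complement ATTGT.
Cntn1, chr7:125252060-125252309, plus strand: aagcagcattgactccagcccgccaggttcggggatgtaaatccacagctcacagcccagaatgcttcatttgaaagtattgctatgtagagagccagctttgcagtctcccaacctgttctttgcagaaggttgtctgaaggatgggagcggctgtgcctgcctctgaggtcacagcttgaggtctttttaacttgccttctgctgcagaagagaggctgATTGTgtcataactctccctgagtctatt
Cntn2, chr13:46528026-46528275, minus strand: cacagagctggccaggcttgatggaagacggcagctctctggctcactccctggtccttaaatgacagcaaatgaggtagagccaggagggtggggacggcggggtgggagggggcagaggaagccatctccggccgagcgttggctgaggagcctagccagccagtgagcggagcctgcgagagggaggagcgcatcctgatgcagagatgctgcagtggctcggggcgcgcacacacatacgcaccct
Nfasc, start nearer to Cntn2, chr13:46627849-46628098, minus strand: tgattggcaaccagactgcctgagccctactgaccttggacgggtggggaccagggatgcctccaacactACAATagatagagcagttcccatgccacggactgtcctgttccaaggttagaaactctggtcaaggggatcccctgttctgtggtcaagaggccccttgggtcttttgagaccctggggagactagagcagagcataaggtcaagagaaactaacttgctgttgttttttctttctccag
Nfasc, start farther from Cntn2, chr13:46701165-46701414, minus strand: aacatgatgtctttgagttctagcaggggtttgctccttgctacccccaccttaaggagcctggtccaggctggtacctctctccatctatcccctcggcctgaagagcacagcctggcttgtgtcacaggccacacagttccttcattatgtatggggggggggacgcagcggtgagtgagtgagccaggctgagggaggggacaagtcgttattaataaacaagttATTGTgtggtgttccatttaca
The Cntn1 stretch and each Nfasc stretch held 1 match to ACAAT on either strand, and the Cntn2 stretch held 0. Of all 33469 promoter entries cut to the same length, 30.0% held at least 1. GC content was 50% for Cntn1, 52% and 52.8% for the 2 Nfasc starts and 64.4% for Cntn2, against a median of 51.2% over all entries. The Sptbn4 entry, not printed, was the richest of the members' entries in GC at 72.4% and held 2 matches to the GC box GGGCGG on either strand, a motif found in 30.5% of entries. These matches describe the letters alone.

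Total counts ran from 17212653 to 21436820 per library. By edgeR's quasi-likelihood test 0 of 17066 genes passed an adjusted p of 0.05, a share of 0%, and DESeq2, limma-voom and the fit with the replicate number as a block also called 0. An unadjusted p below 0.05 was found for 359 genes by edgeR, or 2.1%. Piezo Gel+US replicate 2 stood apart in its cell markers. The summed level of 10 Schwann cell markers was 73155 CPM there, against 4669 to 7768 in Gel+US and 7648 and 13593 in the other Piezo Gel+US libraries. The summed level of 10 astrocyte markers was 1616 CPM in that library against 3535 to 5769 in all others. Of the fibroblast markers, 10 of 10 were detected, with sums of 8400 CPM in Gel+US replicate 2 and 6512 in Piezo Gel+US replicate 2 against 842 to 1883 elsewhere. All 12 neuron markers were detected, with sums of 2910 to 19019 CPM in Gel+US and 2395 to 9735 CPM in Piezo Gel+US, and all 12 oligodendrocyte markers, with 27689 to 44822 and 31054 to 53227 CPM. In bulk tissue, fewer cells of a type and less RNA per cell cannot be told apart.

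Among the paranodal genes, Cntn1 and Cntnap1 were measured at lower mean levels in Piezo Gel+US and Nfasc at a slightly higher one, all within the spread of the libraries. Levels are given as CPM, counts relative to the size of the library, with sizes scaled by the trimmed mean of M-values. Cntn1, which encodes the GPI-anchored axonal contactin of the paranode, measured 774, 480 and 898 CPM in Gel+US replicates 1 to 3 and 749, 303 and 646 CPM in Piezo Gel+US replicates 1 to 3. The libraries numbered 2 were the lowest of each group, and the ranges of the groups overlapped. The means were 717 ± 215 CPM (SD, n = 3) and 566 ± 234 CPM, a log2 fold change of -0.34 (95% interval -1.31 to 0.62), where negative means lower in Piezo Gel+US. Cntnap1, its partner Caspr, measured 267, 156 and 285 CPM in Gel+US and 198, 103 and 239 CPM in Piezo Gel+US. Each Piezo Gel+US library lay below the Gel+US library of the same number, while the ranges overlapped. Its log2 fold change was -0.39 (95% interval -1.28 to 0.51). Nfasc, the glial and axonal neurofascin, measured 384, 250 and 446 CPM in Gel+US and 402, 374 and 414 CPM in Piezo Gel+US. The Piezo Gel+US libraries lay close together inside the range of Gel+US, with means of 397 ± 20.7 and 360 ± 100 CPM (SD, n = 3) and a log2 fold change of 0.14 (95% interval -0.46 to 0.74).

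The juxtaparanodal pair held the member with the largest difference between groups, Cntnap2, and the member with the widest spread, Cntn2. Cntnap2, the gene of Caspr2, measured 63.1, 28.8 and 80.4 CPM in Gel+US and 40.6, 17.9 and 39.1 CPM in Piezo Gel+US. The Gel+US replicate 2 value lay among those of Piezo Gel+US, so the groups overlapped. Its means were 57.4 ± 26.2 and 32.5 ± 12.7 CPM (SD, n = 3), and the log2 fold change of -0.82 (95% interval -1.91 to 0.27) did not pass the edgeR test (adjusted p = 0.994). Cntn2 measured 289, 160 and 250 CPM in Gel+US and 300, 55.5 and 270 CPM in Piezo Gel+US. A single library, Piezo Gel+US replicate 2, lay far below the rest, while the other 2 Piezo Gel+US libraries lay in the upper part of the Gel+US range or just above it. The means were 233 ± 66.2 and 208 ± 133 CPM (SD, n = 3), with a log2 fold change of -0.16 (95% interval -1.58 to 1.26). Without Piezo Gel+US replicate 2 the log2 fold change of Cntn2 was 0.29 and that of Cntnap2 -0.53.

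The genes of the node itself, Nrcam, Ank3 and Sptbn4, were at levels that overlapped between the groups, with Ank3 closest to equal of all 8 members. Ank3, the gene of ankyrin-G, measured 611, 364 and 622 CPM in Gel+US and 570, 357 and 612 CPM in Piezo Gel+US. In both groups the library numbered 2 lay well below the other 2, and library for library the groups were close. Its log2 fold change was -0.053 (95% interval -0.80 to 0.70). Sptbn4, the spectrin that ankyrin-G recruits, measured 137, 99.3 and 145 CPM in Gel+US and 128, 56.6 and 151 CPM in Piezo Gel+US, with the lowest and the highest of all 6 values in the same group. Its log2 fold change was -0.18 (95% interval -1.07 to 0.70). Nrcam, an adhesion molecule of the L1 family that gathers early at forming nodes and is also made by glia, measured 243, 141 and 312 CPM in Gel+US and 204, 136 and 205 CPM in Piezo Gel+US. The Piezo Gel+US values lay in the lower part of the Gel+US range or, for replicate 2, just below it. The log2 fold change of Nrcam was -0.35 (95% interval -1.14 to 0.44).

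**Figure D1:**
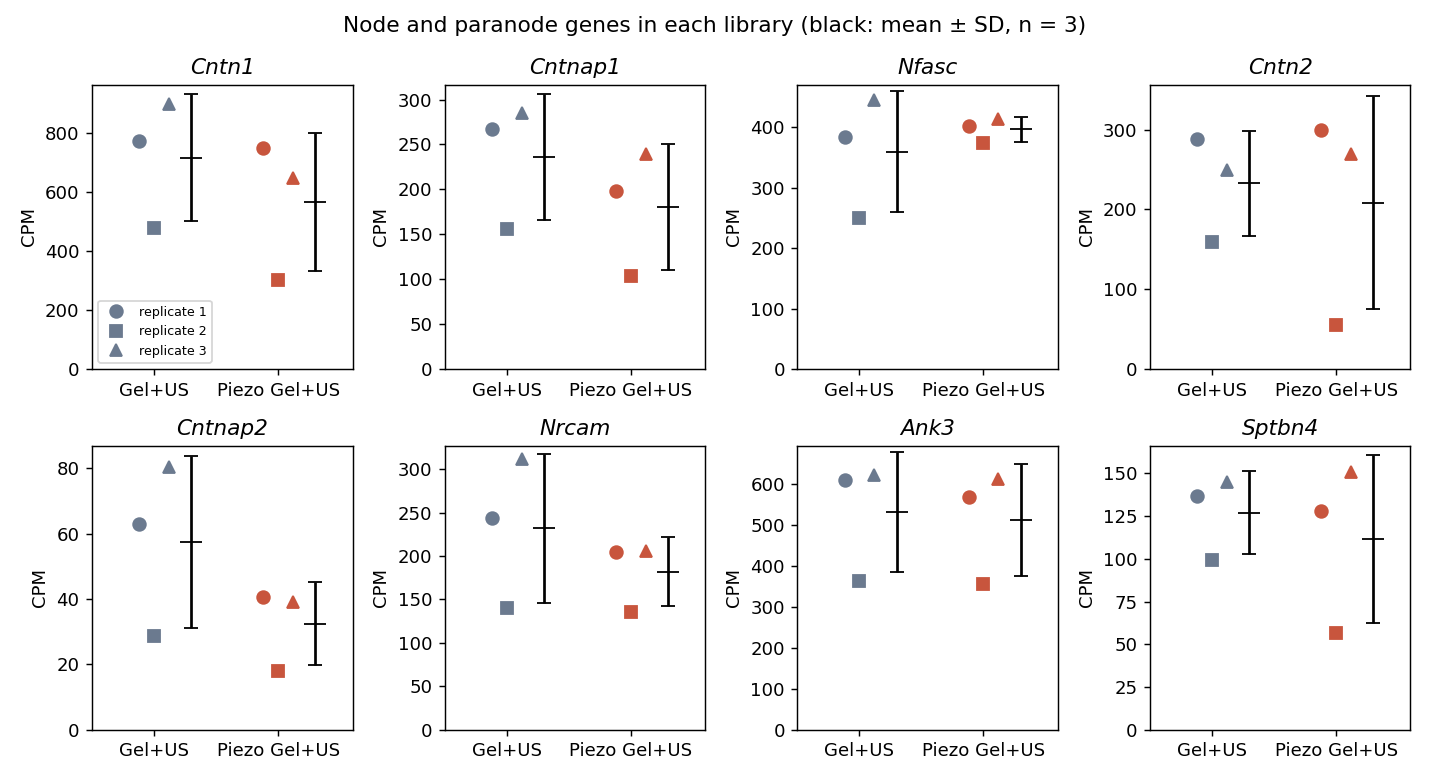
Level of each of the 8 genes in CPM (vertical axes, from 0) in each library, with symbols for the replicate number and black bars for the mean ± SD of 3 libraries. The ranges of both groups overlap for each gene, and Piezo Gel+US replicate 2 is the lowest library for each gene except Nfasc.

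None of the 8 members passed the edgeR quasi-likelihood test, whose smallest adjusted p among them was 0.994, and the share of all genes that passed was 0%. At an unadjusted p below 0.05 the count of members was 0 by edgeR and 0 by DESeq2, against 2.1% and 2.81% of all genes. By limma-voom with quality weights it was 1 of 8 (Cntnap2) against 14.1% of all genes, about the same share. With the replicate number as a block it was 2 of 8 (Cntnap1 and Cntnap2) against 5.78% of all genes. With that block the log2 fold change of Cntnap2 was -0.79 (unadjusted p = 0.00372, adjusted p = 0.855 by edgeR), lower in 3 of 3 pairs of equal number. The labels do not say what a replicate number marks. The block was taken from correlations in these same counts, so its p-values are not independent support. Groups that did not overlap in either direction were found for 0 of the 8 members and for 6.81% of all genes tested. A negative log2 fold change was measured for 7 of 8 members, against 52.9% of all genes, with a median of -0.26 against -0.021 over all genes tested. Without Piezo Gel+US replicate 2 the count was 4 of 8 and the median 0.041, and without Gel+US replicate 3 they were 6 of 8 and -0.093. The intervals show how little was resolved: the widest of the 8, for Cntn2, ran from a level 0.335 times that of Gel+US to 2.39 times, and the narrowest, for Nfasc, from 0.727 to 1.67 times.

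**Figure D2:**
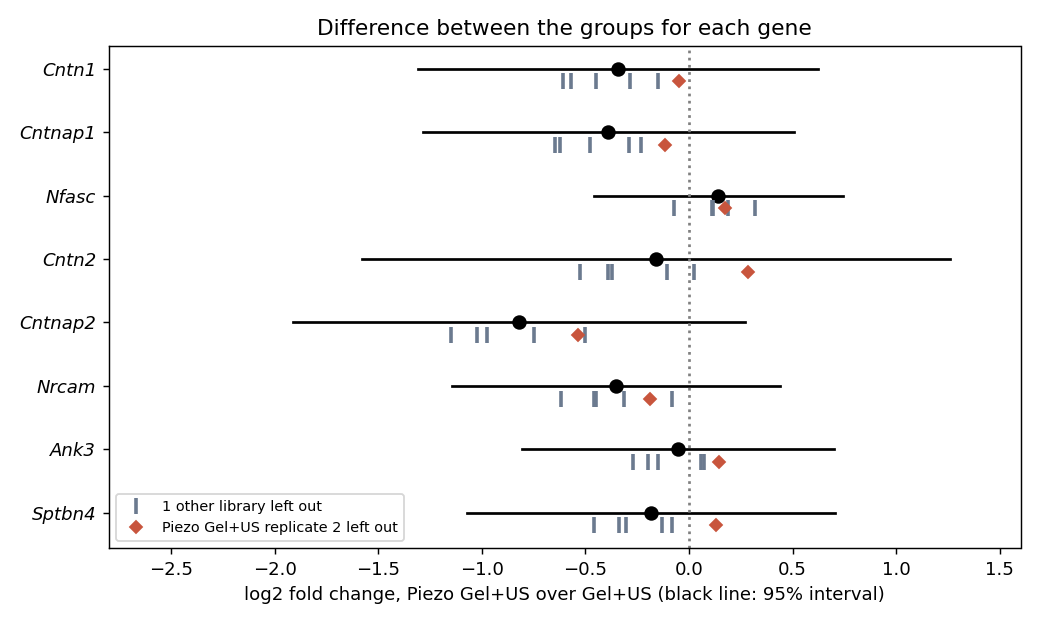
Log2 fold change of each gene, Piezo Gel+US over Gel+US (horizontal axis), with its 95% interval as a black line, and the values with 1 library left out below it. All 8 intervals include 0, and with Piezo Gel+US replicate 2 left out (diamonds) Cntn2, Ank3 and Sptbn4 change from negative to positive.

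Set per kilobase of the deposited gene length, the members fell into an order that spanned from Cntn1 to Cntnap2. Over the 6 libraries, Cntn1 averaged 114 ± 38.5 CPM per kb (SD, n = 6), Nfasc 65.5 ± 11.7, Cntn2 43.7 ± 18.8 and Cntnap1 38.8 ± 13.0 CPM per kb. Ank3 followed at 32.0 ± 7.77, Nrcam at 18.7 ± 5.95, Sptbn4 at 13.5 ± 4.03 and Cntnap2 at 6.97 ± 3.55 CPM per kb. Between neighbours in this order the ranges over the libraries overlapped in every case. Within libraries, Nfasc exceeded Cntn2, Ank3 exceeded Nrcam, Nrcam exceeded Sptbn4 and Sptbn4 exceeded Cntnap2 in 6 of 6. Cntn1 exceeded Nfasc in 5 of 6, the exception being Piezo Gel+US replicate 2 with 53.6 CPM per kb for Cntn1 and 64.8 for Nfasc. Cntn2 exceeded Cntnap1 in 4 of 6 libraries and Cntnap1 exceeded Ank3 in 5 of 6, so these neighbours were not separated. How the deposited lengths combine the transcripts of a gene was not stated, and for genes with long alternative exons such as Ank3 the level per length depends on it.

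Most members were lowest and highest in the same libraries. Piezo Gel+US replicate 2 was the lowest library for 7 of 8 members, and it was the lowest for 28.4% of all genes tested. Gel+US replicate 2 was the second lowest for the same 7 members and the lowest for Nfasc. Gel+US replicate 3 was the highest for 6 of 8, with Piezo Gel+US replicate 1 the highest for Cntn2 and Piezo Gel+US replicate 3 for Sptbn4. The shares of all genes second lowest or highest in these libraries were not computed. The highest library exceeded the lowest by 5.41 times for Cntn2, 4.50 times for Cntnap2 and 1.74 and 1.78 times for Ank3 and Nfasc, with the other 4 members between 2.29 and 2.97 times. On the scale of log2 CPM, the SD over the 6 libraries was 0.94 for Cntn2, larger than in 90.1% of all genes tested, and 0.30 for Nfasc, at the 37.9th percentile. Relative to its own mean over the libraries, Cntn2 was at -1.80 in Piezo Gel+US replicate 2 on that scale while Nfasc was at 0.0061. By the table's own coordinates, given without a build, these 2 genes lie on the same sequence and strand, Nfasc at 3104894 to 3283731 and Cntn2 at 3318355 to 3337720, 34.6 kb apart, with 1 listed gene of no name between them.

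Replicate numbers occur in both groups, and compared by equal number the members were lower in Piezo Gel+US in 6 of 8 cases for replicate 1, 7 of 8 for replicate 2 and 6 of 8 for replicate 3. Cntn1, Cntnap1, Cntnap2, Nrcam and Ank3 were lower in all 3 pairs, 5 of 8 members. The shares of all genes lower in each pair or in all 3 pairs were not computed. These counts are therefore description only. For Cntnap2 the differences in log2 CPM were -0.64, -0.69 and -1.04, and for Cntnap1 they were -0.43, -0.60 and -0.25. For Ank3 they were -0.10, -0.025 and -0.023, which is little beside its spread between replicates. Nfasc differed by 0.067, 0.58 and -0.10, and Cntn2 by 0.056, -1.52 and 0.11, so that the replicate 2 pair alone carried the negative value of Cntn2.

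**Figure D3:**
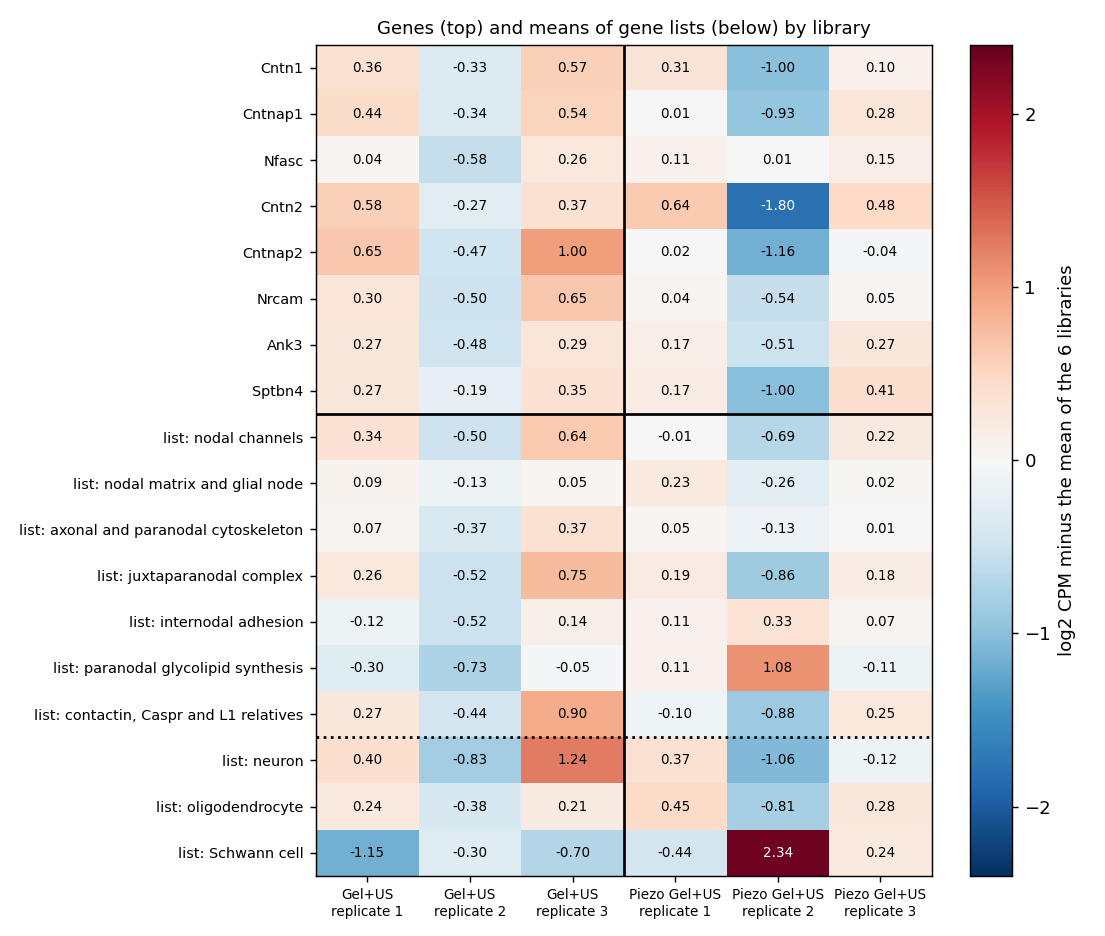
Colour and printed number give log2 CPM minus the mean of the 6 libraries, for the 8 genes (top rows) and as means of gene lists (lower rows, the last 3 being cell markers). The column of Piezo Gel+US replicate 2 holds -1.80 for Cntn2 and 0.01 for Nfasc, with 2.34 for the Schwann cell list and 1.08 for glycolipid synthesis.

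Levels of the members were next set beside markers of the cells that make them. In Piezo Gel+US replicate 2 the mean log2 CPM of the neuron list lay 1.06 below its average over the libraries and that of the oligodendrocyte list 0.81 below, and in Gel+US replicate 2 they lay 0.83 and 0.38 below. When the mean log2 CPM of the oligodendrocyte list was subtracted in each library, the SD over the 6 libraries became smaller for 7 of 8 members, with a median of 0.29 in place of 0.55. Nfasc was the exception, 0.42 in place of 0.30. Subtracting the neuron list made it smaller for 5 of 8, with a median of 0.50, and subtracting the Schwann cell list for 0 of 8, with a median of 1.72. Cntnap2 followed the neuron list most closely of the 8, with an SD of 0.28 in place of 0.78. The other lists were not subtracted. In Piezo Gel+US replicate 2 the astrocyte and oligodendrocyte precursor lists were also low, at -1.24 and -0.82, while the fibroblast list was at 1.46. Whether the smaller SD is particular to oligodendrocyte markers was not tested. The shares of all genes whose SD became smaller were not computed, so the counts of members are description only. The part of cell composition in the differences between groups was not tested.

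Relative to the oligodendrocyte list, each Piezo Gel+US value lay below each Gel+US value for 3 of 8 members and for 3.32% of all genes tested. Ank3 and Sptbn4 were not among them, with differences of the means of 0.0023 and -0.23 and groups that overlapped, nor was Nrcam at -0.25. Cntn1 lay 0.48, 0.41 and 0.72 above the list mean in Gel+US and 0.22, 0.17 and 0.19 above it in Piezo Gel+US, in log2 units. Cntnap1 lay at -1.06, -1.21 and -0.93 in Gel+US and at -1.69, -1.38 and -1.25 in Piezo Gel+US. Cntnap2 lay at -3.14, -3.64 and -2.76 in Gel+US and at -3.98, -3.90 and -3.86 in Piezo Gel+US. The 3 differences of the means were -0.34, -0.37 and -0.73, each with an exact two-sided permutation p of 0.1, the smallest that 3 against 3 libraries allow. Over the 16 comparisons of 8 members with the neuron and oligodendrocyte lists, chosen for testing after the values were seen, the smallest adjusted p of these exact permutation tests was 0.533. Relative to the neuron list 0 of 8 members separated the groups. Of all genes, 0.0938% had all Piezo Gel+US libraries below and 0.498% all above. A higher mean in Piezo Gel+US was found for 7 of 8 members, up to 0.72 for Nfasc. All 12 neuron markers themselves had negative log2 fold changes, with a median of -0.67. A gene of unchanged level would thus also come out higher relative to that list. The share of all genes with a higher mean was not computed, so the count is description only.

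**Figure D4:**
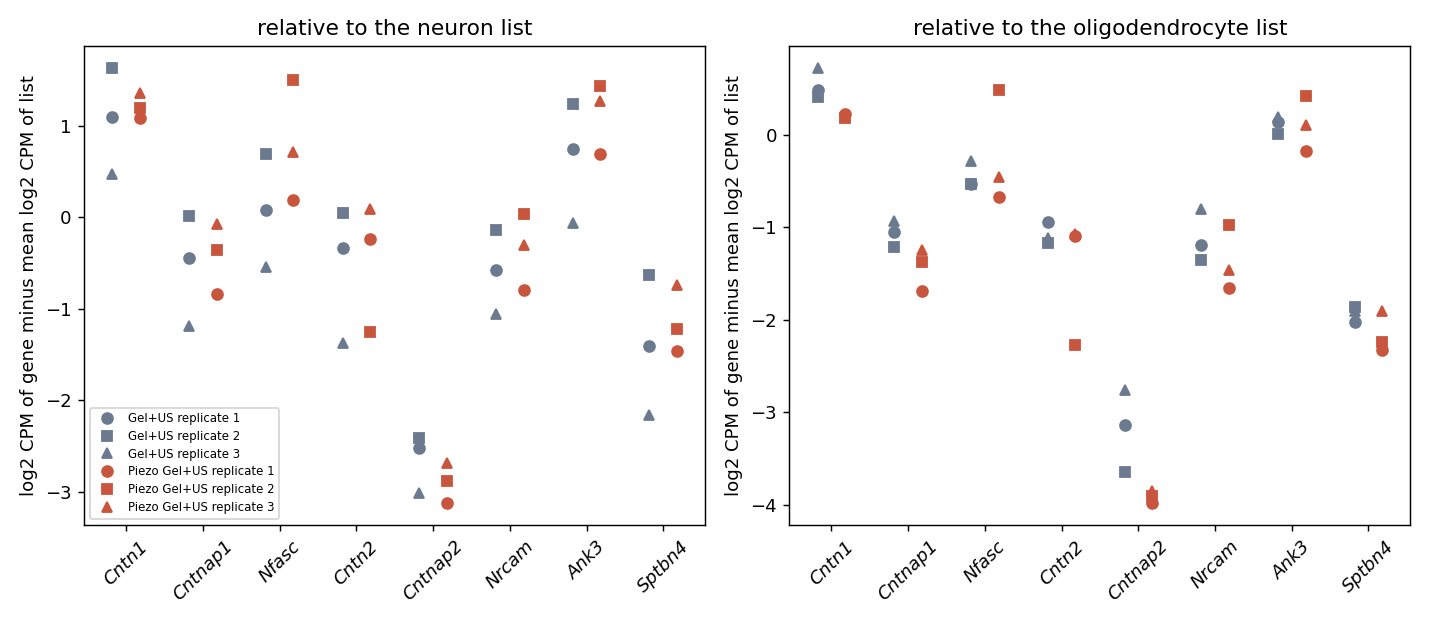
Log2 CPM of each gene minus the mean log2 CPM of the neuron list (left) or the oligodendrocyte list (right) in each library (vertical axes), grey for Gel+US and red for Piezo Gel+US. On the right, the red points of Cntn1, Cntnap1 and Cntnap2 all lie below the grey ones, and Nfasc and Cntn2 in Piezo Gel+US replicate 2 lie apart from the other libraries, at 0.48 and -2.27.

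The other genes of these domains were taken from 7 lists with 54 genes found, and 0 passed the edgeR test, the share over all genes being 0%. At an unadjusted p below 0.05 by edgeR each of 4 lists held 1 gene, Gldn, Cadm4, Fa2h and Cntnap3, against 2.1% of all genes tested. Of the 11 nodal channel genes, 9 had negative log2 fold changes (median -0.25 against -0.021 over all genes tested) and 0 separated the groups. Scn8a, the main sodium channel of mature nodes, measured 162, 87.7 and 275 CPM in Gel+US against 148, 59.8 and 153 CPM, a log2 fold change of -0.54 (95% interval -1.75 to 0.67), which was -0.055 without Gel+US replicate 3 and, with Piezo Gel+US replicate 2 left out instead, -0.22. As for Cntn1, both libraries numbered 2 were the lowest, and Gel+US replicate 3 was the highest. Scn2a, the sodium channel of immature nodes and unmyelinated axons, had a log2 fold change of -0.63 (95% interval -1.58 to 0.32). Without Gel+US replicate 3 the median of the list was also -0.055.

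Of the juxtaparanodal partners 7 of 8 had negative values, with a median of -0.39, which was -0.028 without Gel+US replicate 3 and, with Piezo Gel+US replicate 2 left out instead, -0.092. Kcna1 and Kcna2, the Kv1 subunits that Caspr2 gathers, had log2 fold changes of 0.0098 (95% interval -0.86 to 0.88) and -0.064 (95% interval -0.78 to 0.65), beside -0.82 for Cntnap2. Adam23, a transmembrane protein that binds LGI ligands, had -0.65 (95% interval -1.99 to 0.69), and -0.049 without Gel+US replicate 3. In the cytoskeletal list 4 of 6 were negative with a median of -0.18, and without Gel+US replicate 3 the count was 2 of 6 and the median 0.13. Sptan1, the alpha spectrin of the paranode and node, had -0.099 (95% interval -0.68 to 0.48). Epb41l3, the protein 4.1B that anchors Caspr and Caspr2, had -0.28 (95% interval -1.46 to 0.90) and was highest in Gel+US replicate 3 at 589 CPM. For Epb41l2, its relative, each Piezo Gel+US value lay above each Gel+US value, as for 4.08% of all genes tested, with a log2 fold change of 0.55 (95% interval -0.049 to 1.15), and 0.24 without Piezo Gel+US replicate 2.

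Several glial genes of the node and internode had positive values, to which Piezo Gel+US replicate 2 contributed much. Gldn, gliomedin, the Schwann cell ligand that clusters neurofascin and NrCAM at peripheral nodes, measured 19.8, 31.1 and 16.5 CPM in Gel+US and 25.0, 171 and 39.4 CPM in Piezo Gel+US. Piezo Gel+US replicate 2 was far above the rest, the library in which the Schwann cell markers were also highest, and without it the log2 fold change went from 1.80 (95% interval 0.056 to 3.55) to 0.51. Dag1, dystroglycan, found on the outer Schwann cell membrane and at its nodal microvilli, had 1.00 with all libraries and 0.21 without that one. Cadm4, the glial adhesion molecule of the internode, measured 509, 500 and 481 CPM in Gel+US and 656, 1655 and 662 CPM in Piezo Gel+US. All Piezo Gel+US libraries lay above those of Gel+US, as for 4.08% of all genes tested. The log2 fold change of Cadm4 was 1.00 (95% interval 0.030 to 1.96) and, without Piezo Gel+US replicate 2, 0.40. Cadm3, its axonal partner, had 0.77 with all libraries and 0.072 without that one. The enzymes of myelin galactolipids, which paranodal loops need to attach, were all 3 positive with a median of 0.70. Fa2h, the fatty acid hydroxylase of these lipids, measured 230, 178 and 276 CPM in Gel+US against 336, 744 and 337 CPM, without overlap and higher, as for 4.08% of all genes tested. Its log2 fold change was 1.05 (95% interval 0.15 to 1.95), and 0.55 without Piezo Gel+US replicate 2. Ugt8 and Gal3st1, which make galactosylceramide and sulfatide, had 0.60 and 0.70, and 0.052 and 0.35 without that library. All 10 Schwann cell markers found were also highest in that library, and their part in these values was not tested.

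In the nodal matrix and glial node list as a whole 6 of 11 genes were negative, with a median of -0.14 that ran from -0.42 without Piezo Gel+US replicate 1 to -0.030 without Gel+US replicate 1. Vcan, versican, of the matrix around central nodes, had -0.30 (95% interval -0.91 to 0.31), and -0.13 without Piezo Gel+US replicate 2. Relatives of the members that are not known as node proteins were mostly negative too, 9 of 10 with a median of -0.54, but without Gel+US replicate 3 the count was 5 of 10 and the median 0.043. The contactins Cntn4 and Cntn6 had -0.64 (95% interval -1.87 to 0.60) and -0.45 (95% interval -1.76 to 0.87), and -0.24 and -0.082 without Gel+US replicate 3. Cntnap3, a Caspr relative listed under a provisional name and matched by its protein description, measured 1.70, 1.33 and 1.35 CPM in Gel+US against 0.800, 0.453 and 0.673 CPM, without overlap and lower, as for 2.73% of all genes tested. It rested on few counts, with means of 1.46 ± 0.208 and 0.642 ± 0.176 CPM (SD, n = 3) and a log2 fold change of -1.18 (95% interval -2.19 to -0.18).

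Among 12800 other tested genes with a mean of at least 5 CPM, those whose centred log2 CPM over the 6 libraries lay nearest to each member were listed as a description. Nearest to Cntn2 was Map7, a microtubule-associated protein (root mean square difference 0.038), and nearest by symbol to Nfasc was Gpm6b, a membrane glycoprotein of the proteolipid family (0.037), after a gene described as like aldolase A (0.025). Cntn1 lay nearest to Krt222 (0.051), with Nbea, neurobeachin, the third (0.062). Cntnap1 lay nearest to Pde4d, a cAMP phosphodiesterase (0.062), and Cntnap2 to Epha6, an ephrin receptor (0.072), and Slit1, an axon guidance ligand (0.088). Nrcam lay nearest to Cacnb4, a calcium channel subunit (0.051), Ank3 to Lrrc58 (0.050) and Sptbn4 to Cap2, an actin regulator (0.062). The member most like Cntn1 was Cntnap1 (0.15), its partner in the paranodal complex, yet 141 other genes were nearer to Cntn1. For Nfasc the nearest member was Ank3 (0.24), with 1677 other genes nearer.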

How the data were processed

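RNA was measured in 6 libraries of rat spinal cord lesion core, made from poly(A) RNA with strand marking by dUTP, per the labels' protocols. The authors deposited a table of whole-number counts, 1 row for each gene and without normalisation. The submitters' processing notes list HISAT2 2.0.5, fastp 0.19.7, DESeq2 1.20.0 and featureCounts 1.5.0-p3 but not what each did. The genome build and the strand setting are not given in the sources used here. Of the table's gene identifiers, 0 occur in the RefSeq table of GRCr8, and members were tied to GRCr8 by symbol. The reference used may therefore not be one of the Norway rat. How well rat reads aligned to it is unknown, and the deposited gene lengths and coordinates depend on it. The gene lengths are other deposited values of the same table.

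Each column was assigned by the library name in the labels. edgeR 4.0.16 in R 4.3.3 (TMM factors, filterByExpr with minimum count 10 and minimum total 15, robust quasi-likelihood F test, group as the only term) was fitted to all genes and adjusted by Benjamini-Hochberg over 17066. Members had 355 to 17913 counts per library, so counting error is small beside the spread between libraries (common biological coefficient of variation 0.382). Log2 CPM uses a prior count of 2. The labels call replicates biological; p-values measure the spread between these libraries. Alternatives were RLE and upper quartile factors, DESeq2 1.42.0, limma-voom 3.58.1, no filter, a replicate block and leaving out each library. The fit was tested on simulated data in which the planted changes were far larger than the differences of the members. That test does not show whether differences of their size would be found.

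Members and lists were chosen with earlier results of these data known. The lists have 153 entries: 139 found by symbol, 10 by protein description alone and 4 not found. Named list genes are up to 4 of lowest p per list and 11 picked by name, and a selection of these is printed. Deviations from group means correlated at 0.253, 0.296 and 0.251 between libraries of equal number, all above 0.1, which by the rule used marks the numbers as pairs. Of the 6 unequal combinations 1 was also above 0.1, 0.198 between replicate 1 of Gel+US and replicate 3 of Piezo Gel+US. The pairing rests on the data, as the labels name no shared litter or day. Permutation tests relative to marker lists were added after the values were seen. Protein sequences were not used here.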

Additional observations from a re-analysis of the deposited data

How the results depend on the processing

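The 8 members were recomputed under 12 alternatives, 96 values in all. Of these, 88 kept their sign and 0 passed the test (smallest adjusted p 0.282, Cntnap2 by limma-voom with quality weights). With 1 library left out, log2 fold changes ran from -0.53 to 0.29 for Cntn2, -0.27 to 0.15 for Ank3, -0.46 to 0.13 for Sptbn4 and -0.073 to 0.32 for Nfasc, each changing sign, and from -0.61 to -0.046 for Cntn1, -0.65 to -0.11 for Cntnap1, -1.15 to -0.50 for Cntnap2 and -0.62 to -0.082 for Nrcam. The median over the members ran from -0.47 to 0.041. By limma-voom Sptbn4 had 0.0056, with weights of 7.74 for Gel+US replicate 1 and 0.210 for Piezo Gel+US replicate 2; the cause was not tested. With the replicate block Cntn2 had -0.44 and Cntnap2 -0.79, and no call changed.

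Genes at an unadjusted p below 0.05 numbered 359 in the main fit, 652 by DESeq2, 2413 by limma-voom, 986 with the replicate block and 141 to 775 with 1 library left out. Of 32 list genes, 9 changed sign in at least 1 alternative. By limma-voom Kcna2, Cadm1 and Cntn3 had 0.062, 0.076 and 0.15. With 1 library left out the ranges were -0.25 to 0.35 for Kcna1, -0.32 to 0.24 for Kcna2, -0.41 to 0.16 for Cadm1, -0.78 to 0.18 for Cntn3, -1.30 to 0.17 for Cntn5, -0.65 to 0.43 for Epb41l3, -0.22 to 0.081 for Sptan1, -0.77 to 0.032 for Kcnab1 and -0.56 to 0.046 for Ank1. No alternative moved the median of all genes by more than 0.032, the shift without Gel+US replicate 2.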
